A study of Mus musculus with 8 samples.

Results

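The 10 genes described here, Ptprc, Csf1r, Cx3cr1, Aif1, Mrc1, C1qa, C1qb, C1qc, Tyrobp and Fcer1g, are used as markers of tissue macrophages. They were found as every probe set whose platform symbol is one of these genes alone, which gave 16 of the 45101 probe sets on the array, in 10 of 18193 genes with a symbol of their own, and measured values played no part in the rule. RNA was measured on 8 Affymetrix arrays of microdissected lung mesenchyme, the loose supporting tissue that surrounds the airway epithelium, from CD1 mouse embryos staged e11.5 to e12.5 (days after mating). There were 4 groups of 2 arrays. Tip mesenchyme came from around the growing ends of the airway and was taken without culture. Stalk mesenchyme came from around the airway behind the tips and was either cultured for 12 h on tissue culture plastic with 400 ng/ml Wnt1, a secreted signalling protein, cultured for 12 h in control medium, or taken without culture. The comparisons ask how tip differs from stalk, how Wnt1 changes cultured stalk, and what culture itself does. The labels do not say whether the replicates came from separate litters, so the p-values measure array-to-array spread that may be no more than technical. The labels name no sorting of cells, and in such bulk samples fewer cells of a type and less RNA per cell cannot be told apart.

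Macrophages enter the embryonic lung early and lie in its mesenchyme, where they clear dying cells and debris. Csf1r is the receptor for the growth factors Csf1 and Il34, on which these cells depend, and Spi1 encodes PU.1, a transcription factor needed for their development. Cell surface receptors that lack signalling tails of their own pair with the adaptor proteins Tyrobp and Fcer1g, which pass the signal to kinases such as Syk. C1qa, C1qb and C1qc encode the 3 chains of C1q, the recognition part of the classical complement pathway, and macrophages are a main source of it.

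PU.1 binds purine-rich DNA with the core GAGGAA, and 3 promoters are shown to set C1qb and C1qc, which averaged higher in both culture groups than in stalk, beside Mrc1, which averaged lower. The sequences are the 250 bases before the annotated start, 5′ to 3′ on the strand of the gene, from RefSeq on assembly GRCm38.p6. Capitals mark GAGGAA or its reverse complement TTCCTC. The windows are chr4:136886201-136886450 (minus strand) for C1qb, chr4:136892915-136893164 (minus strand) for C1qc and chr2:14229164-14229413 (plus strand) for Mrc1.
C1qb: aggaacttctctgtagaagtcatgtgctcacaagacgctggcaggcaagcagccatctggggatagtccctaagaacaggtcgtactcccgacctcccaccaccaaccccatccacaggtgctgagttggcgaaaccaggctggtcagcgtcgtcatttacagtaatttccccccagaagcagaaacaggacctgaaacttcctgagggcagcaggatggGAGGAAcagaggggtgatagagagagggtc
C1qc: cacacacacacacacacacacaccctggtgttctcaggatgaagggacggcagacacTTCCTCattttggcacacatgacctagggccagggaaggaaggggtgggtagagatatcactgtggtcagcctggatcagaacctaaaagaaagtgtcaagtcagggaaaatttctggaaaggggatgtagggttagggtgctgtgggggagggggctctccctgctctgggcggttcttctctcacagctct
Mrc1: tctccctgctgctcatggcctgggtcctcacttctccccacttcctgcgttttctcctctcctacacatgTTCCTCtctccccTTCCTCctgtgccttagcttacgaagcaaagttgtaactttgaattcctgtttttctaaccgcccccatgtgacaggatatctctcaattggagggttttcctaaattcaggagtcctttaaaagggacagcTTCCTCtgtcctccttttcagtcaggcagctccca
The match in C1qb begins at base -30 from the start, and the match in C1qc at base -193. Mrc1 holds 3 matches, at -180, -167 and -35. Of the 7 member genes in the promoter table, 5 hold a match, in Ptprc at 1 of its 2 annotated starts, and Cx3cr1 and Fcer1g hold none. Of all 32851 promoters in the table, 23.3% hold the 6 letters on either strand, so a match is a description of these windows and not a binding site.

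The culture arrays stood apart from the uncultured ones in measures that touch every result on culture below. The 2% trimmed mean lay at 500 on each of the 8 arrays, but the median signal was 149 to 298 on the culture arrays, against 76.2 to 99.4 on the uncultured ones. The ratio of 3' to 5' signal for Actb, a measure of RNA or amplification quality, was 6.81 to 24.4 in culture, against 2.02 to 4.52 without. Hybridisation controls stood at 2.90 to 11.0 times the uncultured mean in culture, against 0.554 to 1.17 times on the single uncultured arrays. Replicates correlated at 0.963 in tip, 0.802 in Wnt1 culture, 0.793 in control culture and 0.966 in stalk (Pearson, across probe sets). The 8 lung mesenchyme markers, among them Tbx4 and Wnt2, had means above their arrays' medians in all 4 groups. In stalk so did 6 of 6 erythroid and 7 of 8 endothelial markers, so this level does not single out the tissue named by the label.

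In tip mesenchyme every macrophage marker gene averaged lower than in stalk, but none of the differences passed the test, and the same array, tip replicate 1, was the lowest uncultured one in each gene. Each gene is given by its brightest probe set, taken over the 8 arrays, and values are signals in arbitrary units on a linear scale. Differences are log2 fold changes of the signal plus 44, with the standard error of limma's fit over all 8 arrays, and p-values are limma's, two-sided and adjusted by Benjamini-Hochberg over the 37414 probe sets tested, with a threshold of 0.05. With 2 arrays against 2, an exact permutation test cannot give a p below 0.33.

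Among the surface receptors, Csf1r was at 409 and 2383 in tip, against 1751 and 1978 in stalk. Ptprc, the CD45 phosphatase found on all white blood cells, was at 38 and 204 in tip, against 232 and 268 in stalk. The groups overlapped for Csf1r and did not for Ptprc, and in both genes tip replicate 1 was the lowest array. Cx3cr1, the fractalkine receptor, was at 229 and 451 in tip, against 396 and 369 in stalk. Mrc1, the mannose receptor of phagocytes, was at 195 and 659 in tip, against 388 and 905 in stalk. These 2 genes overlapped between the groups, again with the lowest value in tip replicate 1.

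In the C1q genes tip replicate 1 was again the lowest uncultured array. C1qa was at 26.7 and 210 in tip, against 208 and 216 in stalk. C1qb was at 248 and 415 in tip, against 628 and 493 in stalk. C1qc was at 45.8 and 174 in tip, against 275 and 207 in stalk. The groups did not overlap for C1qb and C1qc, while the C1qa value of tip replicate 2 lay between the stalk values. Of the adaptors, Tyrobp was at 174 and 234 in tip, against 333 and 351 in stalk, without overlap, and Fcer1g was at 75.3 and 190 in tip, against 163 and 127 in stalk, with overlap. Aif1, a calcium-binding protein of the macrophage cytoplasm, was near the background at 47.7 and 82.0 in tip, against 64.7 and 94.3 in stalk.

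The log2 fold changes of tip over stalk lay between -1.04 ± 0.61 in Ptprc and -0.17 ± 0.58 in Fcer1g, with C1qc at -1.02 ± 0.52 and C1qb at -0.71 ± 0.36. Every adjusted p in limma's fit was 1, and 0 of 10 genes were called, beside a background of 0% of all probe sets. Without adjustment, 1 of the 14 member probe sets tested and 155 of all 37414 had a p under 0.05. The arrays of the 2 groups did not overlap in 4 of 10 genes, all lower in tip, where 14.6% of all probe sets did not overlap in that direction. The members' median was -0.68, and the median of all probe sets 0.03.

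On tip replicate 1 the signal of 5 genes, Ptprc, Aif1, C1qa, C1qc and Fcer1g, lay below the array's median, so the size of their differences from it is uncertain. With all signals below the highest array median raised to it, the fitted difference of tip over stalk was 0 in these genes. That was fixed in advance, since this median, 298, lay above all their tip and stalk values. In the other 5 genes the ratio between the 2 tip arrays was further from 1 than that between the 2 stalk arrays. Replicate 2 was 5.83 times replicate 1 for Csf1r, 3.39 times for Mrc1 and 1.34 times for Tyrobp in tip, and 1.13 times for Csf1r, 2.33 times for Mrc1 and 1.05 times for Tyrobp in stalk. The gap depended on the Csf1r probe set. A dimmer one was at 167.5 and 199.7 in tip, against 187.8 and 201.8 in stalk, a log2 fold change of -0.07. Another was at 87.8 and 464.9 in tip, against 383.8 and 328.5 in stalk, a log2 fold change of -0.62. Tip replicate 1 was the lowest of the 4 uncultured arrays in 10 of 10 genes, while over all probe sets tested it was the lowest in 21.9%, against 24.9% for tip replicate 2 and 20.2% and 33.1% for the stalk replicates. On the log2 scale the members' median relative to the stalk mean was -1.23 on tip replicate 1 and 0.014 on tip replicate 2, where that of all probe sets was 0.05 and 0.01. Without tip replicate 1 the members' median fold change of tip over stalk was 0.014, and without tip replicate 2 it was -1.23.

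Some of the other gene lists differed between the same tip arrays. Their medians relative to the stalk mean, on tip replicates 1 and 2 in that order, were -0.67 and 0.10 for 18 further macrophage markers, -0.36 and -0.02 for 15 pan-leukocyte genes, and -0.76 and -0.22 for 7 endothelial markers. The 6 mesothelial markers lay the other way, at 1.01 and 0.31. Some lists differed little between the 2 arrays. The medians were -0.03 and 0.12 for 7 myeloid transcription factors and 0.06 and 0.07 for 14 genes of phagocyte activation. For 6 erythroid markers they were -0.37 and -0.33. The summed signal of the macrophage marker genes was 1488 and 5001 in tip, against 4438 and 5009 in stalk, and that of the mesothelial markers 4450 to 7505 in tip, against 3292 to 3415 in stalk. None of these lists had a member called in tip against stalk, and what the makeup of the dissected pieces contributes was not tested.

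**Figure D1:**
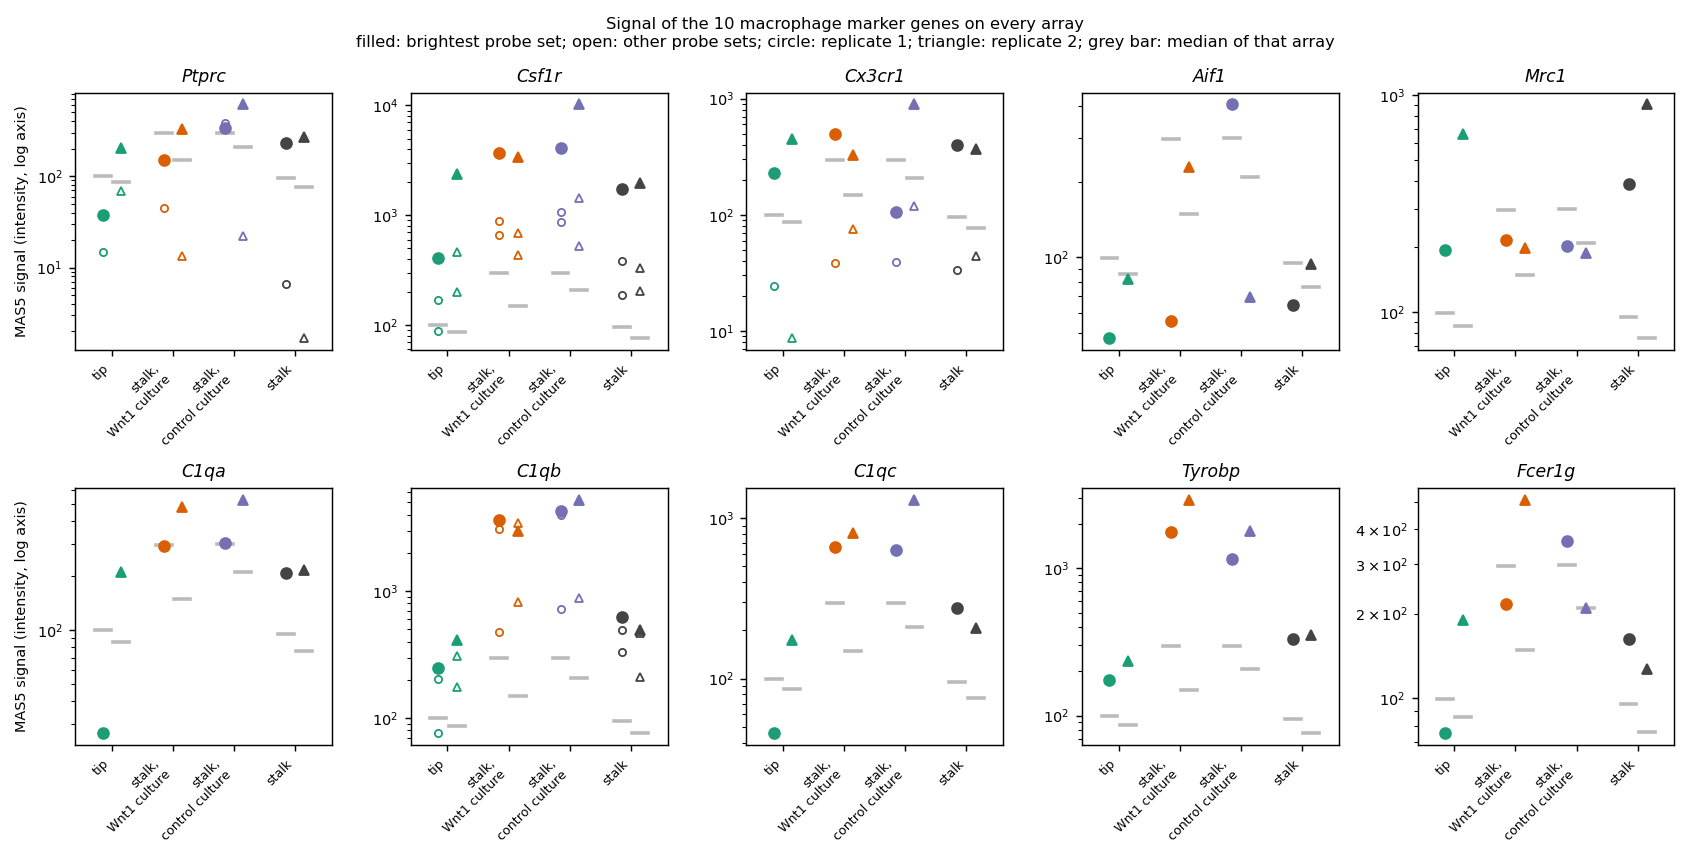
Signal of the 10 macrophage marker genes on each of the 8 arrays (log scale, arbitrary units), with groups from left to right tip, Wnt1 culture, control culture and stalk, circles for replicate 1, triangles for replicate 2, filled symbols for the brightest probe set of a gene, open symbols for its other probe sets and grey bars for the median of each array. C1qb and Tyrobp stand above all uncultured arrays on all 4 culture arrays, Mrc1 stands below both stalk arrays on all 4, and by the filled symbols tip replicate 1 is the lowest uncultured array in every gene.

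Wnt1 did not separate the macrophage marker genes from those of control culture by the test. Csf1r was at 3676 and 3415 in Wnt1 culture, against 4091 and 10229 in control culture, and the groups did not overlap. The single control value of 10229 was the highest of any member on any array. Ptprc was at 149 and 331 in Wnt1 culture, against 338 and 612 in control culture, without overlap but with the nearest values close together. Cx3cr1 was at 498 and 327 in Wnt1 culture, against 106 and 892 in control culture, where the 2 control arrays enclose both Wnt1 values.

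C1qb was at 3626 and 2978 in Wnt1 culture, against 4304 and 5255 in control culture, without overlap. C1qa was at 292 and 484 in Wnt1 culture, against 305 and 529 in control culture, and C1qc at 657 and 813 in Wnt1 culture, against 636 and 1305 in control culture. Both of these overlapped. Tyrobp was at 1761 and 2912 in Wnt1 culture, against 1160 and 1798 in control culture, and Fcer1g at 217 and 508 in Wnt1 culture, against 363 and 210 in control culture. Both adaptors had their highest mean signal in Wnt1 culture, with overlapping arrays in both, and on the log2 scale Cx3cr1 did too. Aif1 was at 55.8 and 228 in Wnt1 culture, against 407 and 69.5 in control culture, so that its replicates differed more than its groups. Mrc1 lay in a narrow range on the 4 culture arrays, at 214 and 198 in Wnt1 culture, against 202 and 188 in control culture.

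The fitted differences of Wnt1 over control culture lay between -0.89 ± 0.61 for Ptprc and 0.63 ± 0.40 for Tyrobp, with Csf1r at -0.86 ± 0.60 and C1qb at -0.53 ± 0.36. None was called by limma, with 0.76 the smallest adjusted p, beside a background of 0% of all probe sets. No member probe set had an unadjusted p under 0.05 (0 of 14), against 2876 of all 37414. The arrays of 3 genes, Ptprc, Csf1r and C1qb, did not overlap, all lower with Wnt1, where the background in that direction was 16.4%. In the other direction 0 genes did not overlap, where the background was 8.94%. These counts are of the brightest probe sets. The dimmer C1qb probe set, at -0.32, and a dimmer Csf1r probe set, at -0.11, overlapped between the cultures. The remaining probe sets of C1qb and Csf1r did not overlap. With these standard errors, changes of the size seen in Csf1r or Tyrobp did not pass with 2 arrays a group, which does not show that the cultures are alike. The members' median was -0.20, and that of all probe sets -0.11.

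In control culture 4 of the 10 genes, C1qb, Tyrobp, C1qc and Csf1r, rose over uncultured stalk, and 0 fell by the test. C1qb was at 4304 and 5255 in control culture, against 628 and 493 in stalk, with means of 4779 ± 673 in control culture and 560 ± 95 in stalk (SD, n = 2 each). That is a log2 fold change of 3.0 ± 0.36, with an adjusted p in limma's fit of 0.00073. All 3 C1qb probe sets were called, the second bright one at 3.12 and the dimmer one at 1.45, and the 2 bright ones bear a suffix that the manufacturer gives to probes that may match other transcripts. C1qc was at 636 and 1305 in control culture, against 275 and 207 in stalk, a log2 fold change of 1.76 ± 0.52 (adjusted p = 0.031, limma). C1qa, the neighbour of both on chromosome 4, was at 305 and 529 in control culture, against 208 and 216 in stalk, and was not called, with 0.80 and an adjusted p of 0.32 in limma's fit.

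Tyrobp was at 1160 and 1798 in control culture, against 333 and 351 in stalk. Its log2 fold change was 1.95 ± 0.40 (adjusted p = 0.0098, limma). Csf1r was at 4091 and 10229 in control culture, against 1751 and 1978 in stalk. Its log2 fold change was 1.77 ± 0.60 (adjusted p = 0.047, limma), and its other probe sets gave 1.69 and 1.59 and were called too. For both genes the lowest control culture array stood above both stalk arrays.

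Mrc1 went the other way, without passing the test. It was at 202 and 188 in control culture, against 388 and 905 in stalk, a log2 fold change of -1.42 ± 0.57 (adjusted p = 0.077, limma). The groups did not overlap, both control culture values lay below their own arrays' medians, and the stalk replicates differed 2.33 times. Fcer1g was at 363 and 210 in control culture, against 163 and 127 in stalk, and Ptprc at 338 and 612 in control culture, against 232 and 268 in stalk. Neither overlapped, and neither was called, at log2 fold changes of 0.77 ± 0.58 for Fcer1g and 0.77 ± 0.61 for Ptprc. Aif1, at 407 and 69.5 in control culture, and Cx3cr1, at 106 and 892, overlapped with their stalk values.

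The 4 called genes (8 of 14 probe sets) stand beside a background of 16.8% of all probe sets called higher, and the 0 genes called lower beside 6.42%. Arrays did not overlap in 7 genes higher in control culture and in 1 gene lower, where the background was 51.4% and 19.7%, so the first of these shares is near its background. The members' median log2 fold change was 0.84, and that of all probe sets 0.72, so a gene near that value moved no further than the typical probe set. Relative to that shift, C1qb stood at 2.28, Tyrobp at 1.23, Csf1r at 1.05 and C1qc at 1.04, and Mrc1 at -2.14. The dimmer C1qb probe set, which does not bear the suffix, stood at 0.73.

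With Wnt1 the stalk pieces showed the same 2 leading genes over uncultured stalk, and this comparison shares its stalk arrays with the one before. C1qb was at 3626 and 2978 in Wnt1 culture, against 628 and 493 in stalk, a log2 fold change of 2.47 ± 0.36 (adjusted p = 0.0026, limma). Tyrobp was at 1761 and 2912 in Wnt1 culture, against 333 and 351 in stalk, a log2 fold change of 2.58 ± 0.40 (adjusted p = 0.0037, limma). These 2 of 10 genes (3 of 14 probe sets) stand beside a background of 7.09% called higher, and the 0 genes called lower beside 4.34%. The dimmer C1qb probe set was not called, at 1.12 (adjusted p = 0.12, limma).

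C1qc reached 1.46 ± 0.52 (adjusted p = 0.074, limma) and Csf1r 0.91 ± 0.60 (adjusted p = 0.28, limma), and neither was called. Mrc1 was at 214 and 198 in Wnt1 culture, against 388 and 905 in stalk, a log2 fold change of -1.36 ± 0.57 (adjusted p = 0.11, limma). Arrays did not overlap in 6 genes higher and 1 lower in Wnt1 culture, where the background was 45% and 19.9%. The members' median was 0.81 and that of all probe sets 0.56. That Csf1r and C1qc were called in control culture and not with Wnt1 does not show a difference between the cultures, and the direct comparison called neither.

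**Figure D2:**
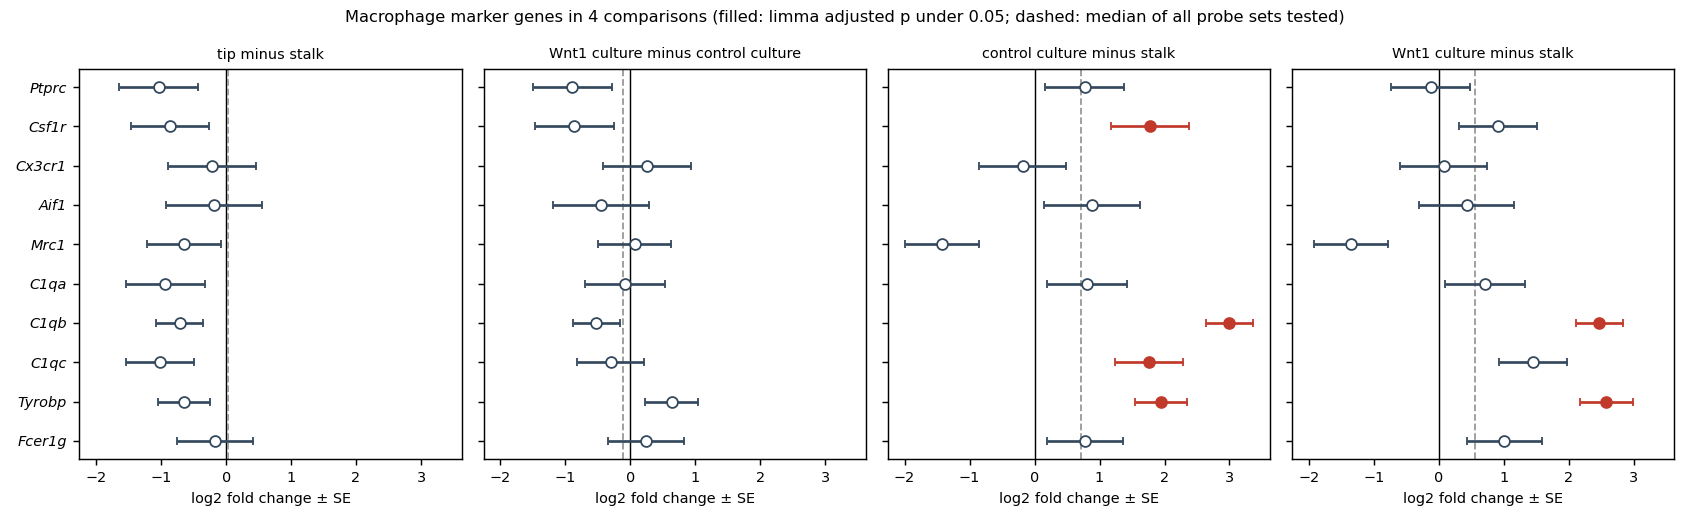
Log2 fold changes (signal plus 44) with standard errors for the 10 genes in 4 comparisons, with filled points for limma adjusted p under 0.05 and a dashed line at the median of all probe sets tested. Filled points are C1qb, C1qc, Tyrobp and Csf1r in control culture against stalk, and C1qb and Tyrobp in Wnt1 culture against stalk.

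The order of the group means was alike in most of the genes. Tip was lowest in 9 of the 10 genes, all but Mrc1, and a culture group was highest in the same 9. Control culture had the highest mean signal in 7 of them and Wnt1 culture in Tyrobp and Fcer1g. The median of all probe sets was also higher in culture than in stalk, by 0.56 in Wnt1 culture and 0.72 in control culture. On tip replicate 2 the members' median relative to the stalk mean was 0.014, and 5 of 10 genes lay above the stalk mean. How often this order occurs among all probe sets was not counted. By the mean of the log2 values the order of Cx3cr1 turned, with Wnt1 culture highest and control culture below stalk, so that control culture was highest in 6 genes and Wnt1 culture in 3. In C1qb the order from the highest was control culture, Wnt1 culture, stalk and tip, with 4 group ranges that do not overlap for its brightest probe set. The neighbours control culture and Wnt1 culture, and stalk and tip, were not called different. In Mrc1 the order from the highest was stalk, tip, Wnt1 culture and control culture, and the arrays of each group overlap with those of the next.

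**Figure D3:**
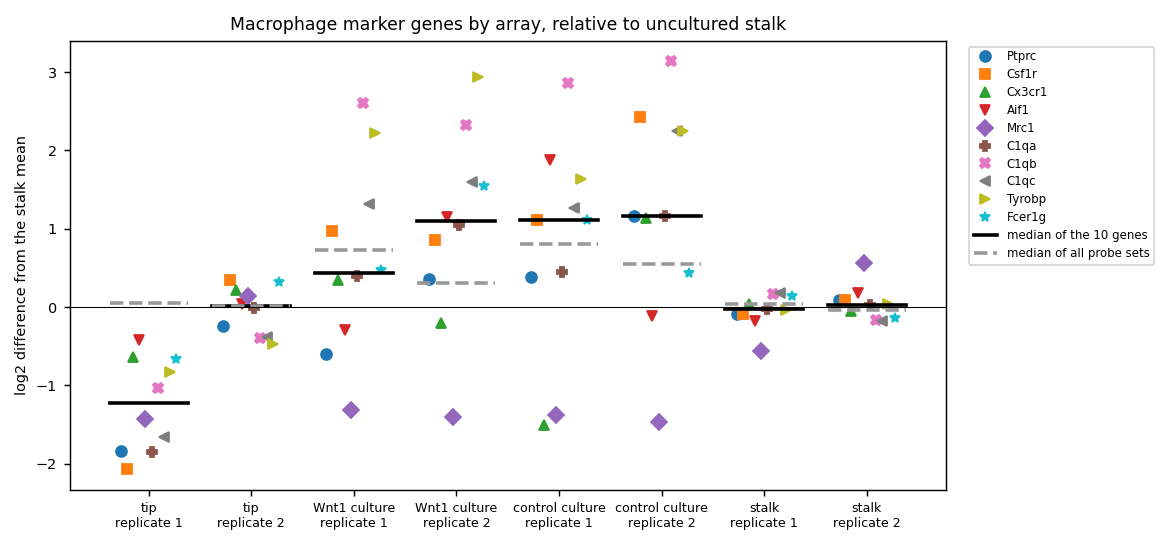
Log2 difference of each of the 10 genes from the uncultured stalk mean on each array, with a solid bar for the median of the 10 genes and a dashed bar for the median of all probe sets tested. On tip replicate 1 the solid bar lies at -1.23 and all 10 genes are below 0. On control culture replicate 1 the solid bar lies at 1.12 and the dashed bar at 0.80.

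The culture comparisons were also computed with the arrays scaled in other ways. Quantile normalization set the median of all probe sets to 0.03 in Wnt1 culture against stalk and 0.05 in control culture against stalk, where it was 0.56 in Wnt1 culture and 0.72 in control culture as deposited. Then C1qb and Tyrobp stayed called in both comparisons, at 2.62 and 2.56 in Wnt1 culture and at 3.19 and 2.0 in control culture, while C1qc and Csf1r did not pass in either. Dividing every array by its median put the median of all probe sets at -0.45 in Wnt1 culture and -0.47 in control culture. C1qb was then at 1.23 (adjusted p = 0.13, limma) in Wnt1 culture and at 1.51 (adjusted p = 0.062, limma) in control culture, and 0 marker genes were called higher. In Wnt1 culture against stalk, Cx3cr1 and Aif1 changed sign under both scalings, and Csf1r, C1qa and Fcer1g under median scaling. In control culture against stalk, Aif1 and Fcer1g changed sign under both, and Ptprc and C1qa under median scaling. Mrc1 kept its sign, at -1.72 and -2.53 in Wnt1 culture and at -2.04 and -2.79 in control culture, and passed the test under median scaling (adjusted p = 0.014 in Wnt1 culture and 0.0066 in control culture, limma). Relative to the median of all probe sets, C1qb stood between 1.68 and 3.14 and Tyrobp between 0.97 and 2.53 over both comparisons and all 3 scalings. The C1qb range is that of its brightest probe set. As deposited, the dimmer C1qb probe set stood at 0.56 in Wnt1 culture and 0.73 in control culture.

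**Figure D4:**
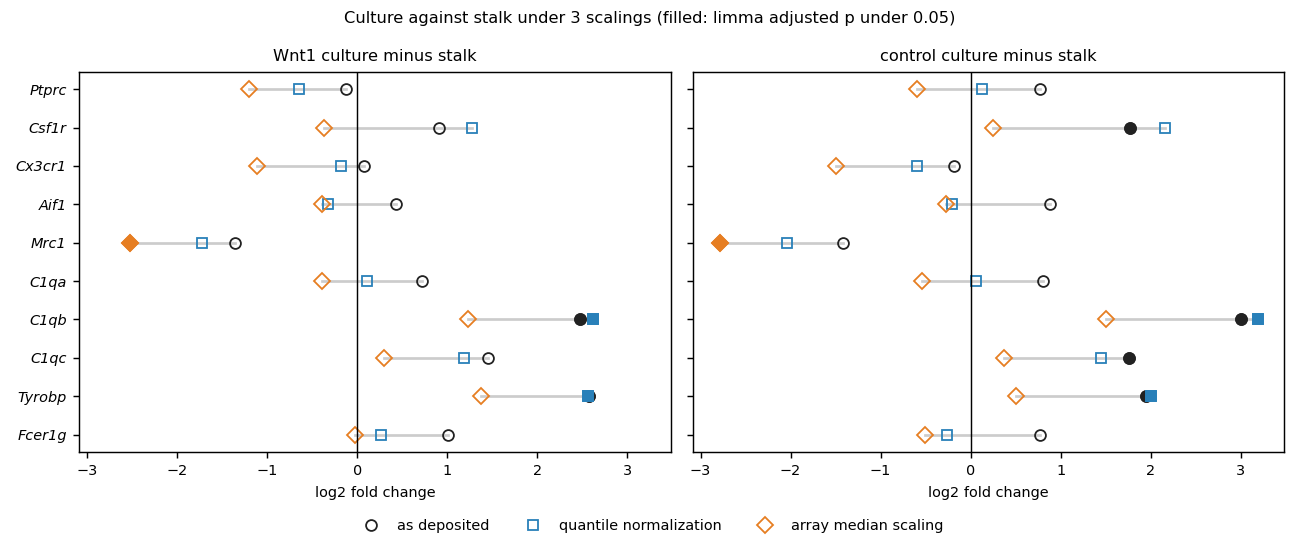
Log2 fold changes of the 10 genes against uncultured stalk in Wnt1 culture (left) and control culture (right), with the values as deposited (circles), after quantile normalization (squares) and after dividing by each array's median (diamonds). Filled symbols have a limma adjusted p under 0.05. Mrc1 lies below 0 and C1qb, Tyrobp and C1qc above 0 under all 3.

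Leaving out single arrays affected the weaker calls of control culture over stalk. The adjusted p of C1qb in limma's fit stayed between 0.0026 and 0.012. Tyrobp missed the threshold without either stalk array, at 0.077 and 0.093. C1qc and Csf1r missed it without any 1 of the 4 arrays, and without control culture replicate 2 Csf1r was at 1.12 and C1qc at 1.27. Over the 16 alternatives tried, the call in control culture was lost in 11 for Csf1r, 7 for C1qc, 4 for Tyrobp and 1 for C1qb, and the call in Wnt1 culture in 2 for C1qb and 2 for Tyrobp.

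Lists of related genes show what else moved. They were chosen with earlier results of these data known, so their counts describe the lists and test nothing about them. In tip against stalk and in Wnt1 culture against control culture, 0 members of every list passed limma's test, where 0 of all 37414 probe sets did. The counts that follow are of genes tested in each culture group against stalk, and the values are log2 fold changes. Of all probe sets tested, 7.09% were called higher and 4.34% lower in Wnt1 culture, with a median of 0.56. In control culture 16.8% were called higher and 6.42% lower, with a median of 0.72. A single call in a short list says little beside these shares. Some genes, C3ar1 among them, stand in several lists, so the counts of different lists are not separate observations.

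Of 18 further macrophage markers, 4 rose in Wnt1 culture and 7 in control culture, with medians of 1.19 in Wnt1 culture and 1.56 in control culture. Adgre1, which encodes the F4/80 surface marker, rose by 1.60 in Wnt1 culture and 2.53 in control culture. Lyz2, the lysozyme of phagocytes, rose by 2.78 in Wnt1 culture and 2.65 in control culture, and Cd68, a lysosomal membrane protein, by 1.61 in Wnt1 culture and 1.85 in control culture. The summed signal of the list was 16262 to 17023 in Wnt1 culture and 14863 to 24367 in control culture, against 7955 to 8195 in stalk. Much of this sum came from Pf4, which was called in neither culture group. It was at 5504 and 4583 in Wnt1 culture and 3631 and 6870 in control culture, against 3588.5 and 3452.6 in stalk. Of 15 pan-leukocyte genes, 6 rose in Wnt1 culture, with Cd37 at 2.68, Laptm5 at 1.51 and Cd52 at 2.33, and 7 rose in control culture, with the same 3 at 3.27, 2.15 and 2.51. Cd37 was at 85.3 and 9.6 in stalk, below its arrays' medians, so the size of its change is uncertain.

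Among the 3 ligands of the member receptors, Csf1 rose by 1.46 (adjusted p = 0.047, limma) in Wnt1 culture and 1.57 (adjusted p = 0.026, limma) in control culture. Il34 stood at -0.0054 in Wnt1 culture and 1.33 in control culture, and Cx3cl1, the ligand of Cx3cr1, at 1.41 in Wnt1 culture and 1.18 in control culture, and neither was called. Of 7 myeloid transcription factors, Runx1 alone rose in Wnt1 culture, by 1.71, where Spi1 stood at 0.93 (adjusted p = 0.27, limma). In control culture Spi1 rose by 1.84 (adjusted p = 0.042, limma) and Runx1 by 1.51.

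Of 8 receptors and kinases that work with Tyrobp or Fcer1g, 3 rose in Wnt1 culture and 6 in control culture. Syk, the kinase that the adaptors recruit, rose by 2.27 in Wnt1 culture and 2.89 in control culture, and Fcgr4, an IgG receptor that pairs with Fcer1g, by 2.24 in Wnt1 culture and 2.46 in control culture. Of 4 other complement genes tested, 0 rose in Wnt1 culture, and C2 and C3ar1 rose in control culture, by 2.85 and 2.30. C1ra and C1s1, of the same list, were not among the probe sets kept for the test. Of 14 genes of phagocyte activation, 5 rose in Wnt1 culture and 7 in control culture. Gpnmb, a glycoprotein of phagocyte lysosomes, rose by 3.86 in Wnt1 culture and 4.33 in control culture. Lgals3, the lectin galectin-3, rose by 5.25 in Wnt1 culture and 4.76 in control culture, and Clec4d, a lectin receptor of myeloid cells, by 4.42 in Wnt1 culture and 4.78 in control culture. In stalk Clec4d was at 25.3 and 12.2, Lgals3 at 72.0 and 1.8 and Gpnmb at 59.1 and 6.2, all below their arrays' medians. Syk, at 51.5 and 32.5 in stalk, Fcgr4, at 9 and 56.7, and C2, at 21.2 and 14.3, lay below them too. C3ar1 was at 13.9 and 85.7 in stalk, below the array's median on replicate 1. The size of the changes in all these genes is therefore uncertain.

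Lists of other cell types moved in the same comparisons. Of 4 lymphocyte and NK markers, Nkg7 rose in Wnt1 culture and 0 passed in control culture, yet the medians were 1.73 in Wnt1 culture and 1.59 in control culture, and 0 genes of the list had a mean above their arrays' medians in stalk. Their summed signal was 862 to 1634 in Wnt1 culture and 487 to 1568 in control culture, against 159 to 173 in stalk. Of 7 neutrophil and monocyte markers, Camp, S100a8 and S100a9 rose in Wnt1 culture, and Camp and S100a8 in control culture. Of 5 mast cell markers, 0 passed in Wnt1 culture and Tpsb2 rose in control culture. Of 7 epithelial markers, Epcam rose in Wnt1 culture, and Epcam and Nkx2-1 in control culture. Of 6 mesothelial markers Krt19 rose in both.

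Endothelial markers fell in 3 of 7 genes in Wnt1 culture, with Kdr at -2.55 and Cldn5 at -3.37, and in 4 of 7 in control culture, with Kdr at -1.99 and Cldn5 at -2.20. Of 8 lung mesenchyme markers, 5 fell in Wnt1 culture and 6 in control culture, with Tbx4 at -1.77 in Wnt1 culture and -2.19 in control culture, and Wnt2 at -3.34 in Wnt1 culture and -2.60 in control culture. In that list 1 gene rose in each, Vim in Wnt1 culture and Col1a1 in control culture. Of 5 megakaryocyte and platelet markers Ppbp fell, at -2.88 in Wnt1 culture and -2.67 in control culture. Of 6 erythroid markers, 2 fell in Wnt1 culture and 4 in control culture, with Hba-x at -2.19 in Wnt1 culture and -2.87 in control culture, and Hbb-y rose in both.

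Many of these list calls depended on the scale of the arrays. The counts over all probe sets changed with the scaling too and are given in the last section. After quantile normalization 1 of the 18 further macrophage markers, Lyz2, rose in Wnt1 culture, and 2, Lyz2 and Adgre1, rose in control culture, and after median scaling 0 rose in both. Of the pan-leukocyte genes 1 rose in Wnt1 culture and 3 in control culture after quantile normalization, and 2 in Wnt1 culture and 1 in control culture after median scaling. Of the ligands and the myeloid transcription factors, 0 rose under either scaling, with Csf1 at 1.57 in Wnt1 culture and 1.63 in control culture after quantile normalization, and at 0.25 in Wnt1 culture and 0.13 in control culture under median scaling. Under median scaling F13a1, of the further macrophage markers, and Maf, of the transcription factors, fell in both culture groups, and Lcp1, of the pan-leukocyte genes, in control culture. Of the receptors and kinases of the adaptors 0 rose after quantile normalization, and under median scaling 0 rose in Wnt1 culture and 2, Syk and Fcgr4, in control culture. Of the other complement genes 0 rose after quantile normalization, and under median scaling C2 alone rose, in control culture, where C3ar1 was at 1.29 (adjusted p = 0.23, limma), and Serping1 fell in Wnt1 culture. Of the neutrophil and monocyte markers 0 rose after quantile normalization, and under median scaling Camp, S100a8 and S100a9 rose in Wnt1 culture and 0 in control culture. Nkg7 and Nkx2-1 rose under neither scaling, and Tpsb2 rose in control culture under median scaling and not after quantile normalization. Epcam in both culture groups and Krt19 in Wnt1 culture rose after quantile normalization and not under median scaling. Gpnmb, Lgals3 and Clec4d rose in both culture groups under both scalings. Among the genes that fell, Kdr, Wnt2, Hba-x and Ppbp fell in both culture groups under both scalings. After quantile normalization Cldn5 missed the threshold in control culture and Tbx4 in Wnt1 culture. Vim rose in both culture groups after quantile normalization and in neither under median scaling, and Hbb-y and Col1a1 rose under neither scaling. The part of these shifts, of the array scale and of the Actb ratio in the results on the 10 genes was not tested.

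Genes whose pattern over the 8 arrays came closest to that of the members were looked for among 8537 genes. The pattern was the mean centred log2 profile of the 5 members above the highest array median on at least 4 arrays, Csf1r, Cx3cr1, C1qb, C1qc and Tyrobp. The 8537 genes passed the same filter. The highest median is that of a control culture array, so the filter favours genes high in culture. It left out Mrc1, and the pattern is not that of all 10 members. The smallest root mean square differences were 0.22 for Fbln5, 0.26 for Eln, 0.32 for Cd36, 0.32 for Rsad2 and 0.33 for Coro1a, while the 5 members themselves differed from it by 0.19 for C1qc to 1.04 for Cx3cr1. Fbln5 was at 655 and 676 in Wnt1 culture and 556 and 950 in control culture, against 210.8 and 128.4 in stalk. Fbln5 and Eln encode proteins of elastic fibres, Cd36 a scavenger receptor, Rsad2 an interferon-induced enzyme and Coro1a an actin-binding protein of white blood cells.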

How the data were processed

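Each of the 8 arrays gave 1 intensity per probe set on a linear scale. Per the submitters' processing notes, the authors made the deposited intensity values by MAS5 in Affymetrix Expression Console, and the sources used here give no version, setting or detection call. RNA was amplified in 2 cycles, per the labels' protocols, which can favour 3' ends. After removal of 64 control probe sets, the platform annotation names 1 gene for 34945 probe sets, several for 932 and none for 9160. Gene identifiers of 34741 of the first matched RefSeq GRCm38.p6, including all 10 marker genes.

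The test used log2(value + 44), 44 being the 25th percentile of the intensity values, which understates the change of dim genes. Probe sets above 96.4 (40th percentile) on at least 2 arrays were kept. That left 37414, with 14 of the 16 member probe sets, and removed the dimmer ones of Ptprc and Cx3cr1. limma 3.58.1 (R 4.3.3) was run on all 4 groups together, with lmFit, then eBayes with a trend on intensity, no covariates and 4 residual degrees of freedom, and was tested on simulated data. Plots were made in matplotlib 3.10.9 (Python 3.11.15). The number of arrays limits the precision.

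The marker genes, the other gene lists and the tests were chosen with earlier results of these data known. All marker genes are named. Of each other list up to 4 genes past the threshold are named, by smallest p, with Csf1, Il34, Cx3cl1, Spi1, Gpnmb, Lgals3 and Clec4d always. Col1a1, Vim, F13a1, Maf, Lcp1, Serping1, C1ra, C1s1 and Pf4 were named after their values were seen. The 5 genes of most like pattern were taken by root mean square difference. Alternatives changed the pseudocount, filter, signal floor, normalization, probe sets, variance model, arrays and replicate block. Replicate numbers were not taken as pairs, since the labels do not say that a number marks a shared litter or day and each group has only 2.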

Additional observations from a re-analysis of the deposited data

How the results depend on the processing

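The 10 marker genes were recomputed under 16 alternatives in each comparison, of which the array median scaling and the fit without probe sets of ambiguous suffix were chosen after seeing the data. In tip against stalk 153 of 158 values kept their sign and their side of the threshold, in Wnt1 against control culture 146, in control culture against stalk 124 and in Wnt1 culture against stalk 141. A difference of 0, which raising low signals to the highest array median gave in some genes, was counted as keeping its sign. With 2 arrays per group and no detection calls, genes near the arrays' medians, Aif1 above all, have little signal over background.

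Counts of probe sets called were 0 in tip against stalk, with 3 when all signals below the highest array median were raised to it (the floor) and 0 without any array. In Wnt1 against control culture they were 0, with 1 at a pseudocount of 16, 46 under the floor and 0 to 58 without single arrays (58 without control culture replicate 2, 2 without Wnt1 culture replicate 2). In control culture against stalk 8687 were called, with 675 under the floor, 2295 after quantile normalization, 4248 with 1 probe set per gene and 214 to 11786 without single arrays (936 and 11786 without control culture replicates 1 and 2, 493 and 214 without stalk replicates 1 and 2). In Wnt1 culture against stalk 4276 were called, with 2595 at the larger pseudocount, 115 under the floor, 892 after quantile normalization, 2617 with 1 probe set per gene, 2614 without the intensity trend, 8373 under array median scaling and 179 to 12699 without single arrays (968 and 12699 without Wnt1 culture replicates 1 and 2, 262 and 179 without stalk replicates 1 and 2). The split in control culture against stalk, 6286 higher and 2401 lower, became 986 and 1309 after quantile normalization, 1580 and 9345 under median scaling and 254 and 421 under the floor. In Wnt1 culture against stalk 2652 and 1624 became 408 and 484, 1216 and 7157, and 31 and 84. Differences between same-numbered replicates correlated at 0.147 to 0.274 among the 3 groups of stalk and at -0.0148 to 0.0987 between these and tip (Pearson, across probe sets). With the replicate number as a block, 1 probe set was called in Wnt1 against control culture and 8515 in Wnt1 culture against stalk, where C1qc was called (adjusted p = 0.034, limma), and in control culture against stalk Mrc1 was called (adjusted p = 0.037, limma).

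The members' median in tip against stalk was -0.68, with -0.025 under the floor, which puts several genes at 0 by construction, and -1.23 to 0.014 without single arrays. It was 0.19 after quantile normalization and -0.38 under median scaling in Wnt1 culture against stalk, and 0.091 and -0.39 in control culture against stalk. Without 1 array, tip against stalk ran over -2.07 to 0.35 in Csf1r, -0.64 to 0.22 in Cx3cr1, -0.42 to 0.039 in Aif1, -1.43 to 0.13 in Mrc1 and -0.66 to 0.31 in Fcer1g. Wnt1 against control culture ran over -1.06 to 1.58 in Cx3cr1, -1.45 to 0.54 in Aif1, -0.45 to 0.27 in C1qa, -0.80 to 0.19 in C1qc and -0.30 to 0.78 in Fcer1g. Control culture against stalk ran over -1.51 to 1.14 in Cx3cr1 and -0.11 to 1.88 in Aif1, and Wnt1 culture against stalk over -0.60 to 0.36 in Ptprc, -0.20 to 0.35 in Cx3cr1 and -0.30 to 1.15 in Aif1.

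Signs also turned under other settings. In Wnt1 against control culture Cx3cr1 was at -0.34 under the floor, and C1qa at 0.045 after quantile normalization and 0.14 under median scaling. In control culture against stalk Cx3cr1 was at 0.41 under the floor, Aif1 and Fcer1g at -0.21 and -0.26 after quantile normalization, and Ptprc, Aif1, C1qa and Fcer1g at -0.60, -0.27, -0.54 and -0.51 under median scaling. In Wnt1 culture against stalk Ptprc was at 0.067 under the floor, Cx3cr1 and Aif1 at -0.18 and -0.33 after quantile normalization, and Csf1r, Cx3cr1, Aif1, C1qa and Fcer1g at -0.36, -1.11, -0.40, -0.39 and -0.029 under median scaling. Without probe sets of ambiguous suffix C1qb was at 1.12 (adjusted p = 0.11, limma) in Wnt1 culture against stalk. Under the floor Csf1r, C1qc and Tyrobp missed the threshold in control culture (adjusted p = 0.47, 0.14 and 0.065 in that order, limma) and Tyrobp in Wnt1 culture (adjusted p = 0.063, limma). Apart from the choice of scaling, which sets the arrays' medians by construction, the cause of these changes was not tested.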
